A study of Mus musculus with 5 samples.

Results

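The 33 genes described here encode collagens and other proteins of the extracellular matrix, together with enzymes that act on them. They were taken as a fixed list of symbols and matched by symbol among the 24860 genes of the deposited matrices, where all 33 were found. By role they comprised 6 fibrillar collagen genes, 6 genes of basement membrane proteins, 5 genes of collagen VI and fibril-associated collagens, 9 genes of glycoproteins and matricellular proteins, 3 genes of small leucine-rich proteoglycans, and 4 genes of crosslinking enzymes and a surface protease.

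Fibrillar collagens are secreted as procollagens, trimmed outside the cell, assembled into fibrils and crosslinked by lysyl oxidases, which gives tissue its tensile strength. Basement membranes are thin sheets of type IV collagen, laminin and nidogen that underlie epithelium and wrap capillaries. In mammary tumours, fibroblasts of the stroma are the best known source of interstitial matrix, while endothelial and epithelial cells contribute to basement membrane and macrophages secrete some glycoproteins.

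The tumours were grown from SSM2 cells, a hormone receptor-positive mouse mammary tumour line, placed in the fourth mammary gland of mice 10 to 12 weeks old. Each host received a subcutaneous pellet of 60 mg that released either progesterone or placebo over 60 days, and tumours were taken after 28 to 62 days, dissociated with enzymes, freed of red cells and profiled by droplet-based 3' single-cell RNA sequencing. Placebo pellets were carried by 2 libraries and progesterone pellets by 3, in 2 batches named by the sample titles: Placebo 1 and Progesterone 1 formed batch 1, and Placebo 2, Progesterone 2 and Progesterone 3 formed batch 2. The host strain and the number of mice behind each library were not given in the sources used here, and nothing says that Progesterone 2 and Progesterone 3 came from separate animals. The names they were deposited under carry the same code, with L in the first and R in the second, and they may be tumours of the same mouse, although both batch 1 libraries, of different treatments, carry a common code too. The main fibroblast and tumour cell tests rest on this pair as replicates, with 1 residual degree of freedom. A p-value there sets a difference against variation between these libraries, which could lie within a single mouse or be purely technical. Variation among placebo libraries was not measured in these tests.

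Totals ran from 23409215 to 204786073 UMIs (unique molecular identifiers, each standing for a captured transcript) per library, and 2191 to 5583 cells were kept. Any pair of libraries shared 2 to 12 cell barcodes. Cells were clustered without the 33 genes and classes were named from markers that include none of them. Fibroblasts numbered 4, 371, 50, 69 and 142 in Placebo 1, Placebo 2, Progesterone 1, Progesterone 2 and Progesterone 3, tumour epithelial cells 2, 2715, 41, 2740 and 2786, macrophages 16, 647, 332, 1054 and 701, and endothelial cells 16, 68, 28, 3 and 3. Placebo 1 was largely T cells (4152 of 4744 cells), so it gave no usable sum for fibroblasts or tumour cells, and Placebo 2 was the only placebo library in both of those comparisons. Levels are given in CPM, the UMIs of a gene per 1000000 UMIs of the class in that library. In batch 2, the summed fibroblast markers (12 of 13 detected in each library) reached 3326 to 3601 CPM in fibroblasts against 3.26 to 5.48 in tumour cells. Fibroblasts of Placebo 2, Progesterone 2 and Progesterone 3 also held macrophage markers at 344, 208 and 225 CPM and tumour cell markers at 639, 540 and 603 CPM, and the part of such RNA in the comparisons below was not tested. The fibroblasts of Progesterone 1 stood apart, since 27 of the 50 cells formed a sub-cluster found in no other library (led by Trf, Slpi and Saa3), so their values are given separately. A further 17 belonged to a sub-cluster of low depth led by keratin genes (F0), which also held 71 of 371 fibroblasts in Placebo 2, 18 of 69 in Progesterone 2 and 38 of 142 in Progesterone 3. F0 was the largest sub-cluster, with tumour cell markers at 5415 CPM and fibroblast markers at 1850 over all libraries.

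In batch 2, fibroblasts carried most of the matrix transcripts. The 33 genes made up 7.43%, 8.77% and 8.52% of fibroblast UMIs in Placebo 2, Progesterone 2 and Progesterone 3, but 3.01% in Progesterone 1. In tumour cells of the same 4 libraries they made up 0.0907%, 0.0268%, 0.024% and 0.0431%, and in macrophages 0.393%, 0.301%, 0.258% and 0.408%. Of all UMIs of these genes, fibroblasts held 77.3% in Placebo 2, 61.9% in Progesterone 2 and 80.3% in Progesterone 3. The fibroblast share was 47.0% in Progesterone 1, where macrophages held most of the rest, and 7.51% in Placebo 1, with its 4 fibroblasts. Since the classes come from clustering the same cells, differences between classes are descriptions without a test.

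**Figure D1:**
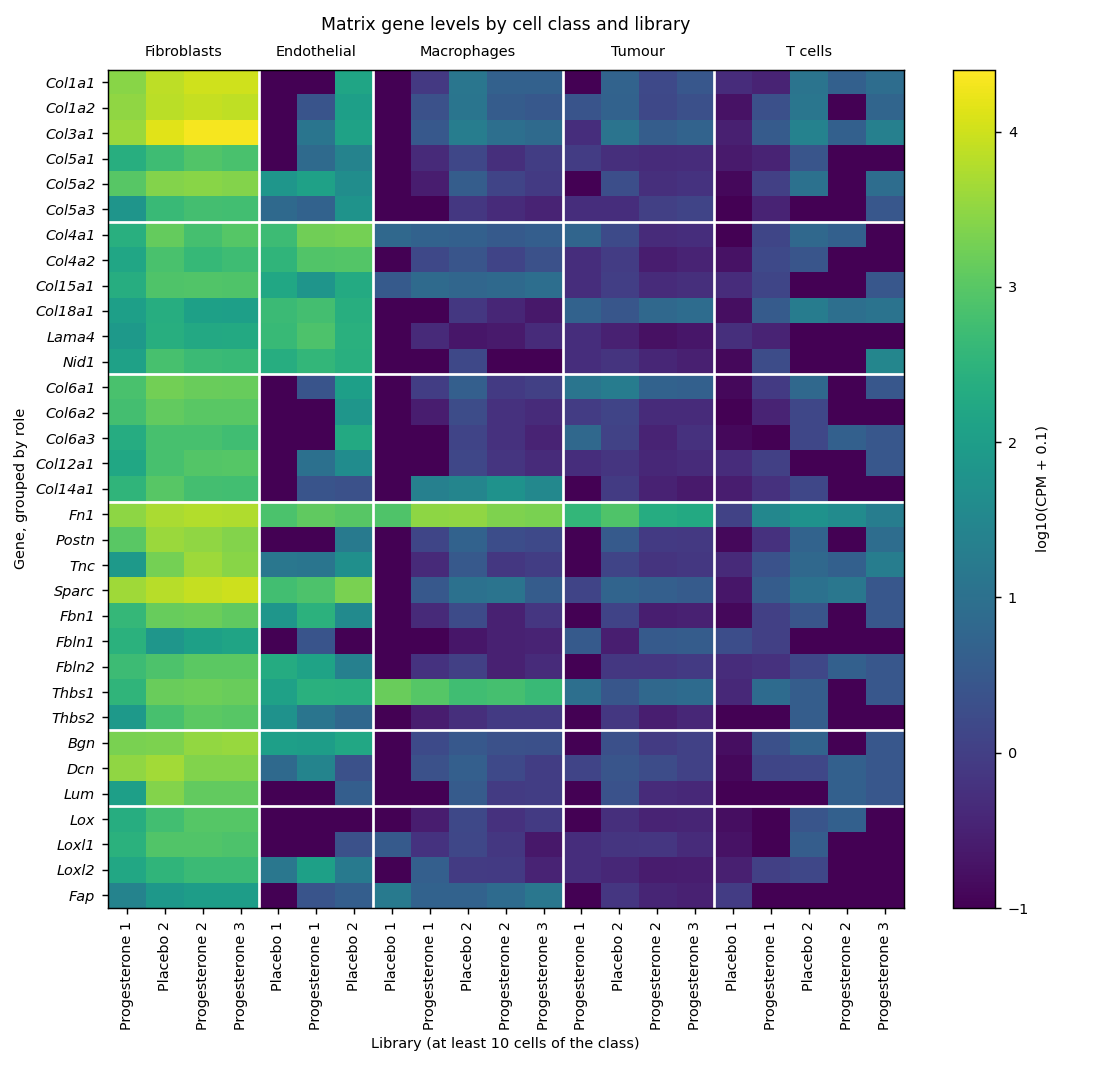
Level of each of the 33 genes (rows, grouped by role) in 5 cell classes, by library with at least 10 cells of the class (columns), as log10 of CPM plus 0.1. Fibroblast columns are bright for nearly every gene, while Fn1 is also bright in macrophages and tumour cells, Thbs1 in macrophages, and the basement membrane genes in endothelial cells.

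Over the 3 libraries of batch 2 summed, 26 of the 33 genes had more than 90% of their UMIs in fibroblasts, among them Col1a1 (98.0%), Col3a1 (97.9%), Tnc (98.1%), Dcn (98.0%) and Lox (97.6%). The main exception was Fn1, the gene of fibronectin, with 20.4% of its UMIs in fibroblasts, 54.1% in tumour cells and 22.3% in macrophages. Col18a1, whose product is a basement membrane collagen and the precursor of endostatin, had 45.2% in fibroblasts and 49.0% in tumour cells. Fbln1, the gene of the elastic-fibre and basement membrane glycoprotein fibulin-1, had 49.9% in fibroblasts and 46.9% in tumour cells. Thbs1, the gene of the matricellular protein thrombospondin-1, had 46.9% in fibroblasts and 44.3% in macrophages. These sums cover unlike libraries. Fibroblasts held 94.4% of the Fbln1 UMIs in Placebo 2, 25.9% in Progesterone 2 and 40.8% in Progesterone 3, and tumour cells 4.43%, 71.3% and 54.4%. For Col18a1 the fibroblast shares were 77.3%, 14.4% and 20.2% and the tumour cell shares 16.3%, 79.5% and 75.1%, and macrophages held 28.0%, 69.3% and 40.4% of Thbs1. The number of fibroblasts differed between these libraries (371, 69 and 142), and its part in the shares was not tested. Fap, a surface protease used as a marker of activated fibroblasts, had 70.5% in fibroblasts and 17.1% in macrophages.

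The bases upstream of the start are shown for Fbln1, which passed the test in both fibroblasts and tumour cells, and for Col18a1 and Col6a1, both on chromosome 10, that went in opposite directions in tumour cells. They are from RefSeq on GRCm38.p6, the assembly also named mm10, written 5' to 3' on the gene's strand and ending at the base before the listed start. For Fbln1 and Col18a1, 2 promoters each were listed, and the stretch shown is the one before the gene's first base. Which start is used in these cells was not tested. Fbln1 lies on the plus strand (chromosome 15, gene 85205949 to 85286294, stretch chr15:85205699-85205948), Col18a1 on the minus strand (chromosome 10, gene 77052178 to 77166530, stretch chr10:77166531-77166650) and Col6a1 on the minus strand (chromosome 10, gene 76708792 to 76726044, stretch chr10:76726045-76726164). Capitals mark TGTTCT, an arm of the element bound by the progesterone and glucocorticoid receptors, or GGGCGG read on the other strand, a motif of the Sp1 family.
Fbln1: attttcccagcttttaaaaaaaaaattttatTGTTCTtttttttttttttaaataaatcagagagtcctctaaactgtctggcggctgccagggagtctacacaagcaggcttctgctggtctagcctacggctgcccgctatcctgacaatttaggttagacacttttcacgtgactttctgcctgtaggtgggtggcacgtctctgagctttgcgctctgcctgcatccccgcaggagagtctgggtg
Col18a1: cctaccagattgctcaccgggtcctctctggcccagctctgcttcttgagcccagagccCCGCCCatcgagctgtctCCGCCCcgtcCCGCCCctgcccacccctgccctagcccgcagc
Col6a1: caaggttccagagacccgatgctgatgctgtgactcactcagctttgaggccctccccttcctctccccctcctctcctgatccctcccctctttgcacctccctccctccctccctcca
The GC content of these stretches was 46.4%, 70.8% and 61.7%, and the Col6a1 stretch held none of the motifs searched. The table listed a promoter for 20 of the 33 genes. In the 250 bases before the start, on either strand and with overlaps between motifs counted for both, TGTTCT stood in 3 of the 20 (Bgn, Fbln1 and Sparc) and in 16.2% of 27025 promoters, and GGGCGG in 11 of the 20 and in 32.9% of all. TATAAA was found in 3 (Col3a1, Thbs2 and Tnc) against 13.0% of all promoters, and CCAAT in 7 against 34.5%. Col4a1 and Col4a2, which encode the chains of the common type IV collagen, lie head to head on chromosome 8 with start regions that overlap. A match describes letters in the window and not a binding site.

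The comparison of progesterone with placebo in fibroblasts asked whether the stromal matrix programme differed with the hormone. With batch as a term in edgeR's quasi-likelihood fit, Progesterone 1 was alone in its batch and the ratios rest on Progesterone 2 and Progesterone 3 against Placebo 2. Only Fbln1 passed the test, which makes 1 of 33 genes. Over all 11428 genes tested the share was 1.81%, of which 1.11% were higher and 0.7% lower in the progesterone libraries. Fbln1 stood at 67.8 CPM in Placebo 2, 119 in Progesterone 2 and 140 in Progesterone 3, and at 277 in Progesterone 1. Both progesterone libraries of batch 2 lay above the placebo library, and the fitted difference was 1.12 on the log2 scale (SE 0.20, edgeR adjusted p = 0.0438). The share of fibroblasts with a Fbln1 UMI, after thinning each cell to 3676 UMIs, was 20.4% of 304 cells in Placebo 2, 39.2% of 51 in Progesterone 2 and 32.0% of 103 in Progesterone 3. Over 10 fits that gave a test, Fbln1 passed in 8, with edgeR or DESeq2 adjusted p from 1.19e-05 to 0.999. These fits are not separate checks. The fit with at least 20 cells used the same libraries as the main fit and gave the same calls, and several others dropped Progesterone 1.

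The other 32 genes did not pass. By role, with no test, the median log2 ratio was 0.62 for the fibrillar collagens, -0.39 for the basement membrane genes, -0.08 for collagen VI and the fibril-associated collagens, 0.62 for the glycoproteins, -0.71 for the small proteoglycans and 0.63 for the crosslinking and protease genes. It was 0.26 over all 33 and -0.02 over all genes tested. Of the 33 genes, 19 had an unadjusted p under 0.05 in edgeR's test, as had 1642 of all 11428 genes.

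**Figure D2:**
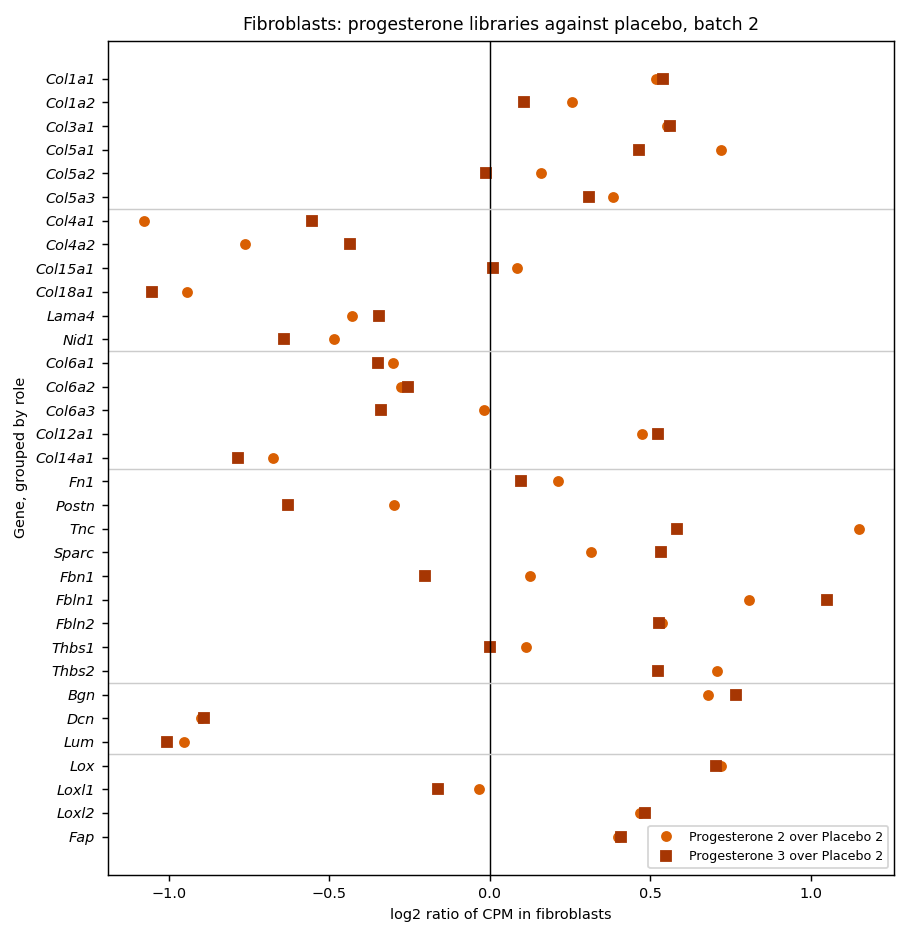
log2 ratio of CPM in fibroblasts, Progesterone 2 (circles) and Progesterone 3 (squares) over Placebo 2, for the 33 genes grouped by role. Fbln1, Tnc and Bgn lie to the right of 0 in both libraries, and Dcn, Lum, Col18a1 and Col4a1 to the left.

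Among the fibrillar collagens, Col3a1, the gene of type III collagen, stood at 14110 CPM in Placebo 2, 20704 in Progesterone 2 and 20823 in Progesterone 3. Col1a1, which encodes the alpha 1 chain of type I collagen, stood at 7158, 10262 and 10398 in the same order. Its partner chain gene Col1a2 stood at 7089, 8477 and 7634. The pair of progesterone libraries were close to each other for Col3a1 and Col1a1 and above placebo, with fitted differences of 0.74 (SE 0.19, edgeR adjusted p = 0.122) and 0.72 (SE 0.19, edgeR adjusted p = 0.13). Type V collagen nucleates and limits the width of fibrils. Its genes Col5a1, Col5a2 and Col5a3 stood at 517, 2467 and 461 in Placebo 2, at 852, 2755 and 602 in Progesterone 2, and at 713, 2445 and 572 in Progesterone 3. Col5a2 alone among the 6 was not above placebo in both progesterone libraries. In Progesterone 1, with its different cells, Col1a1 stood at 2718 and Col3a1 at 3828.

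The basement membrane genes lay mostly the other way. Col4a1 stood at 1357 CPM in Placebo 2, 643 in Progesterone 2 and 925 in Progesterone 3, and Col4a2 at 715, 421 and 529. Col18a1 stood at 228, 119 and 110, a difference of -0.81 (SE 0.16, edgeR adjusted p = 0.0605). Nid1, whose product nidogen links laminin to type IV collagen, stood at 664, 474 and 425, and Lama4, a laminin chain gene of vessels and stroma, at 241, 179 and 190. These 5 genes were below placebo in both progesterone libraries. Col15a1, a collagen of the basement membrane zone, stood at 799, 849 and 805, with no separation between the groups. A sub-cluster of 6 cells led by the pericyte gene Rgs5 held 4052 CPM of Col4a1, and 4 of the 371 fibroblasts of Placebo 2 belonged to it. Summed pericyte markers over all fibroblasts were 232, 212 and 312 CPM in Placebo 2, Progesterone 2 and Progesterone 3. That sum includes Ndufa4l2, a leading gene of another sub-cluster, which held 712 CPM of pericyte markers. The part of such cells in the differences was not tested.

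Collagen VI forms beaded filaments around cells, and its genes Col6a1, Col6a2 and Col6a3 stood at 1773, 1253 and 690 CPM in Placebo 2 against 1440, 1036 and 682 in Progesterone 2 and 1393, 1050 and 546 in Progesterone 3. The fibril-associated collagens XII and XIV bind the fibril surface. Col12a1 stood at 658, 915 and 946, and Col14a1 at 993, 622 and 577, so these related genes lay on opposite sides of placebo in both libraries.

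Among the glycoproteins, Tnc, the gene of the wound-associated protein tenascin-C, stood at 1873 CPM in Placebo 2, 4157 in Progesterone 2 and 2810 in Progesterone 3. The progesterone libraries lay well apart from each other, at log2 ratios to placebo of 1.15 and 0.58, and the fitted difference was 1.07 (SE 0.25, edgeR adjusted p = 0.0895). Thbs2, the gene of thrombospondin-2, stood at 682, 1116 and 983, and Fbln2, a fibulin of elastic fibres and vessels, at 772, 1120 and 1111. Sparc, whose product binds collagen and helps its deposition, stood at 6618, 8231 and 9585. Postn, the gene of the matricellular protein periostin, stood at 3940, 3202 and 2547, the only gene of this role below placebo in both libraries. Fn1 stood at 5295, 6136 and 5670, Thbs1 at 1465, 1585 and 1465, and Fbn1, the gene of the microfibril protein fibrillin-1, at 1382, 1508 and 1201. Differences of the last 3 were small beside those of Tnc.

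The small leucine-rich proteoglycans coat collagen fibrils and regulate their spacing, and their genes did not lie on the same side. Bgn (biglycan) stood at 2128 CPM in Placebo 2, 3410 in Progesterone 2 and 3623 in Progesterone 3, with a fitted difference of 0.91 (SE 0.19, edgeR adjusted p = 0.0667). Dcn (decorin) stood at 4517, 2421 and 2435, a difference of -0.71 (SE 0.17, edgeR adjusted p = 0.104). Lum (lumican) stood at 2483, 1282 and 1237, a difference of -0.79 (SE 0.17, edgeR adjusted p = 0.0675). For all 3 genes the progesterone libraries lay close together and away from placebo. Among the crosslinking genes, Lox stood at 578, 951 and 942 (0.90, SE 0.17, edgeR adjusted p = 0.0563), Loxl2 at 339, 469 and 474, and Loxl1 at 868, 847 and 776. Fap stood at 75.2, 99.3 and 99.9. Lox and Loxl2 lay above placebo in both libraries, while Loxl1 did not. In Progesterone 1, of the other batch and with its different cells, several genes lay on the other side of Placebo 2 or at its level. Tnc stood there at 83.0, Thbs2 at 81.9, Lox at 226 and Bgn at 2108, while Dcn (3208) and Lum (112) lay below Placebo 2 too. No usable placebo fibroblasts of that batch could be set beside them.

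The number of calls in fibroblasts moved with the processing. DESeq2's Wald test called 5 of the 33 genes, where 0.928% of all genes were called, and edgeR's fit without Progesterone 1 called 6, where 2.67% were. EdgeR's fit without the batch term called 0 of the 33 and 0 of all genes. There 2 of the 33 and 273 of all 11428 genes had an unadjusted p under 0.05. A fit without 4 sub-clusters, chosen after seeing the data (those of low depth with keratin genes, with macrophage genes, found in Progesterone 1 alone, or led by pericyte genes) left 5 fibroblasts in Progesterone 1 and so dropped that library as well. It called 10 of 33 where 689 of 11087 genes (6.21%) passed: Tnc, Thbs2, Col3a1, Col5a1, Fbln1, Col5a3, Bgn, Col1a1 and Loxl2 higher, and Dcn lower. Over the 10 fits Bgn passed in 7, Lox and Thbs2 in 6, and Tnc, Col3a1 and Lum in 5. In each of these fits Bgn, Lox, Thbs2, Tnc and Col3a1 were higher with progesterone and Lum lower. Tested on counts simulated with a dispersion of 0.02 and no differences between batches or sub-clusters, the fibroblast fit recovered 41 of 100 genes changed 2-fold. At that setting a difference of this size was often missed, and whether the setting matches these libraries was not tested.

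The make-up of the fibroblasts differed between libraries, and members differed strongly between sub-clusters. In Placebo 2, Progesterone 2 and Progesterone 3, the sub-cluster led by Mmp3 and Sfrp1 (F1) held 42, 10 and 29 cells, that led by Spp1, Igfbp3 and Inhba (F4) 27, 12 and 18, that led by Serpinb2, Ndufa4l2 and P4ha2 (F6) 18, 10 and 27, that led by Igfbp5, Sema3c and Pi16 (F5) 50, 4 and 4, that led by Dio2 (F3) 56, 2 and 5, that with macrophage genes (F2) 74, 3 and 3, and the keratin-led F0 of low depth 71, 18 and 38. Over all libraries, Tnc stood at 5752 CPM in F4 and at 31.0 in F5, and Bgn at 4797 and 345. Col3a1 was at 27886 in F6 and 9024 in F5, and Lox at 1752 and 294. Fbn1 went the other way, with 3143 in F5 and 1198 in F4. The F2 and F3 sub-clusters, mostly from Placebo 2, held 3687 and 3395 of Lum against 675 in F4.

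Within the 3 sub-clusters with at least 10 cells in each library of batch 2, part of the differences remained visible and part did not. Dcn stood at 5290, 3036 and 2525 CPM in F1 of Placebo 2, Progesterone 2 and Progesterone 3, at 1822, 1004 and 1180 in F4, and at 4160, 3302 and 3184 in F6, below placebo in each. Col3a1 stood at 17322, 19498 and 19514 in F1, at 9252, 12837 and 13541 in F4, and at 16977, 30003 and 35262 in F6, above placebo in each. Lum, by contrast, stood at 678, 645 and 732 in F4, where the groups overlapped, and at 2057, 1479 and 1434 in F1. Col1a1 stood at 7652, 11670 and 16886 in F6 but at 11054, 8976 and 10230 in F4, so its direction differed between sub-clusters. Tnc was above placebo in both libraries only in F4 among these 3 sub-clusters (4647, 8473 and 6127), and stood at 1534, 1074 and 1532 in F1. Bgn was at 4608, 4164 and 4566 in F4 and at 1752, 2234 and 2680 in F6. Fbln1 stood at 71.0, 103 and 182 in F1, 180, 139 and 173 in F4, and 93.0, 85.0 and 99.0 in F6, so its difference was seen in F1. Col6a1 was below placebo in both libraries in all 3. Each value comes from 10 to 42 cells of a single library, and the differences within sub-clusters were not tested.

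**Figure D3:**
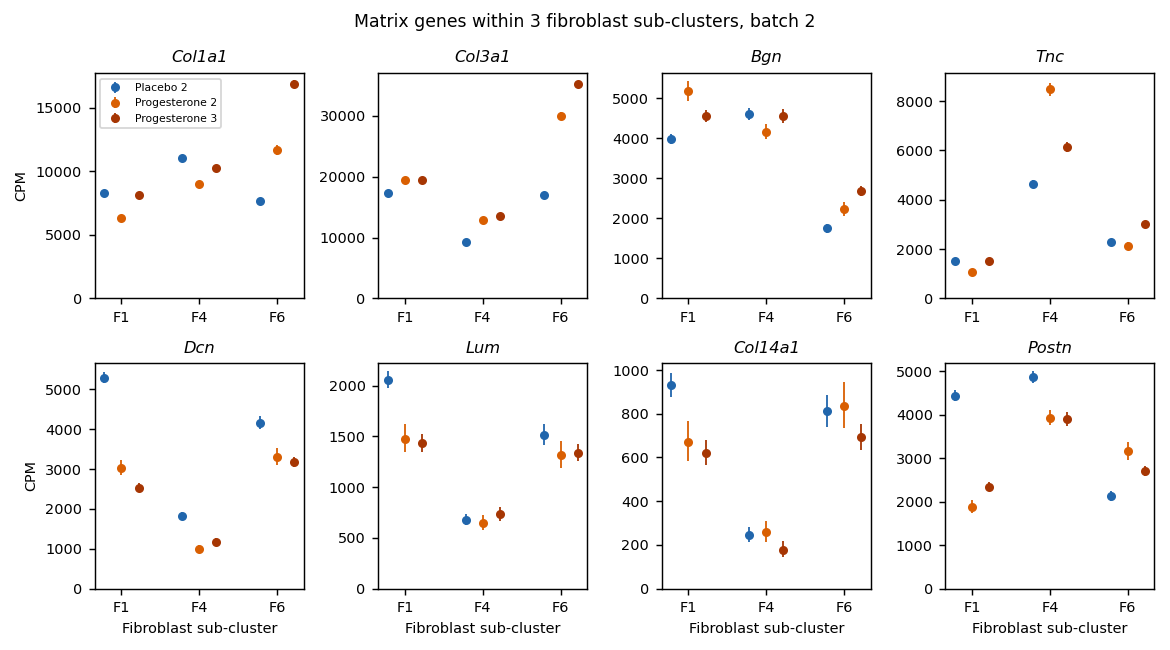
CPM of 8 genes within the fibroblast sub-clusters F1, F4 and F6, by library of batch 2, with exact Poisson 95% intervals (counting error only). Dcn of Placebo 2 lies above both progesterone libraries in each sub-cluster, Col3a1 below them, and Tnc separates in F4.

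Genes that process or surround these proteins were read from the same fibroblast fit, in which 1.81% of all genes passed. An unadjusted p under 0.05 in edgeR's test was reached by 1642 of all 11428 genes, and DESeq2's Wald test called 0.928% of all. Of 21 genes of collagen processing, 2 were higher and 0 lower, with a median log2 ratio of 0.46, and DESeq2's Wald test called 2. They were P4ha2, a prolyl hydroxylase subunit gene (102, 200 and 263 CPM in Placebo 2, Progesterone 2 and Progesterone 3, log2 difference 1.38), and Pcolce, an enhancer of procollagen trimming (251, 430 and 471, 1.03). Of 42 tested genes of other matrix structure, Prelp (1.14) and Podn (1.10), of the leucine-rich proteoglycan family, rose, Col13a1, a transmembrane collagen gene, fell by 1.77 on the log2 scale, and the median was -0.05. DESeq2's Wald test called 0 of these 42, and 16 had an unadjusted p under 0.05 in edgeR's test. Of 21 tested receptor genes, 0 passed in edgeR's test, 7 had an unadjusted p under 0.05, and DESeq2's Wald test called 0. Of 18 genes of TGF-beta response and myofibroblasts, Inhba, an activin subunit gene (98.6, 527 and 279, log2 difference 2.19), and Ltbp2, a latent TGF-beta binding protein family gene (1.44), rose, with a median of 0.26, and DESeq2's Wald test called 2. Inhba and Ltbp2 are leading genes of sub-cluster F4, which held 27 of 371, 12 of 69 and 18 of 142 fibroblasts in Placebo 2, Progesterone 2 and Progesterone 3. P4ha2 is a leading gene of F6, which held 18, 10 and 27. The part of these shares in the rises was not tested.

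In tumour epithelial cells, 28 of the 33 genes passed edgeR's test, 4 higher and 24 lower with progesterone. The background was high there: 49.6% of 16209 genes passed, 24.2% higher and 25.5% lower. The median log2 ratio was -1.31 over the 33 genes and 0.01 over all genes tested. Levels were low for all but Fn1, so the level in T cells, a class not known as a source of most of these proteins, is given beside them. T cells were no blank for every gene: in Placebo 1, with 4 fibroblasts and 2 tumour cells, they held all 63 Fbln1 UMIs (in 55 of 4152 cells), 28 of 34 of Fap, 14 of 17 of Col12a1 and 12 of 15 of Tnc. Tumour cells had medians of 44818, 52771 and 46286 UMIs in batch 2 and T cells 4955, 4229 and 4619.

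Fn1 gave the most UMIs of the 33 genes in tumour cells and stood at 829 CPM in Placebo 2, 225 in Progesterone 2 and 193 in Progesterone 3, and at 379 in Progesterone 1. T cells of the first 3 libraries held 57.0, 40.8 and 19.5. Progesterone 2 and Progesterone 3 were below the placebo library of their batch, and Fn1 fell by 2.14 on the log2 scale (SE 0.11, edgeR adjusted p = 6.13e-10). As in fibroblasts, Progesterone 1 was alone in its batch, so setting it beside Placebo 2 mixes batch with treatment. Col6a1 stood at 18.8, 4.81 and 4.47, with 12.5 in Progesterone 1, and fell by 2.16 (SE 0.12, edgeR adjusted p = 3.04e-11). Its T cell levels were 6.47, 0 and 2.79, from 5, 0 and 1 UMIs. In T cells 3 counts stand for 3.88, 13.6 and 8.37 CPM in Placebo 2, Progesterone 2 and Progesterone 3. A T cell level equal to that of tumour cells was therefore not detectable in Progesterone 2 and Progesterone 3. After thinning, 48.4% of 1358 tumour cells had a Col6a1 UMI in Placebo 2, 17.1% of 1712 in Progesterone 2 and 15.5% of 1468 in Progesterone 3.

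Fbln1 rose most in size among the 33, from 0.18 CPM in Placebo 2 (27 UMIs) to 3.35 in Progesterone 2 (543 UMIs) and 3.65 in Progesterone 3 (531 UMIs), with 3.22 in Progesterone 1 (8 UMIs). Progesterone 2 and Progesterone 3 stood together above the placebo library of their batch, and Progesterone 1, of the other batch, lay near them. In T cells Fbln1 stood at 1.78 CPM in Placebo 1 (63 UMIs) and 0.98 in Progesterone 1 (4 UMIs). T cells of Placebo 2, Progesterone 2 and Progesterone 3 had no Fbln1 UMI, which allows up to 3.88, 13.6 and 8.37 CPM (3 counts), so at this depth a T cell level equal to that of tumour cells was not detectable. The difference was 4.02 on the log2 scale (SE 0.26, edgeR adjusted p = 5.70e-10), and the share of cells with a UMI after thinning was 0.96% in Placebo 2, 12.3% in Progesterone 2 and 13.3% in Progesterone 3. Col18a1 rose from 2.71 to 6.69 and 8.02 (log2 1.28), Thbs1 from 2.69 to 6.46 and 7.69 (1.24), and Col5a3 from 0.41 to 0.98 and 1.16 (1.19). In Progesterone 1 Col18a1 stood at 4.83, Thbs1 at 9.26 and Col5a3 at 0.40 from a single UMI. The T cell levels of Col18a1 were 18.1, 9.06 and 11.2 from 14, 2 and 4 UMIs, which is above its tumour cell levels in each of the 3 libraries.

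**Figure D4:**
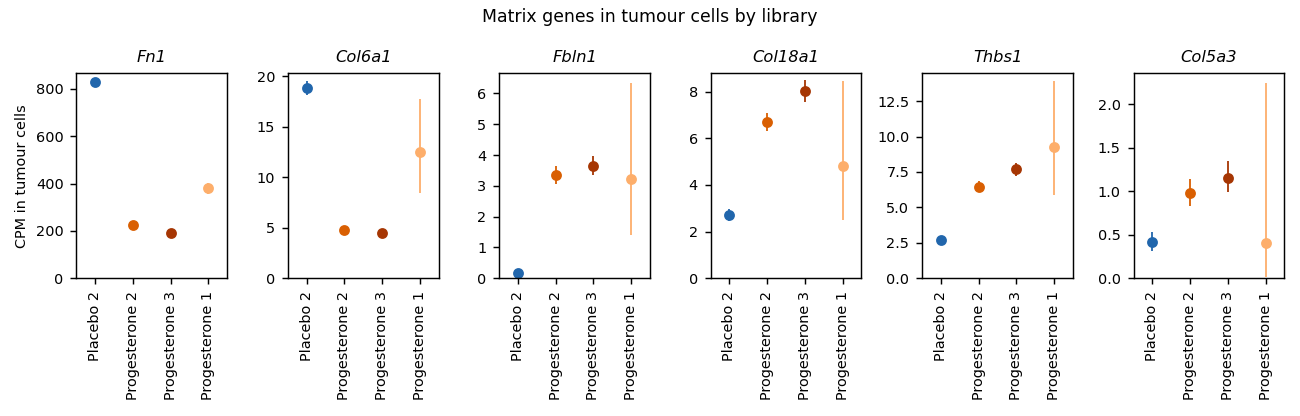
CPM in tumour cells of 6 genes in Placebo 2, Progesterone 2, Progesterone 3 and Progesterone 1, with exact Poisson 95% intervals (counting error only). Fn1 and Col6a1 are highest in Placebo 2, while Fbln1, Col18a1 and Thbs1 are lowest there. Progesterone 1 is of the other batch.

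Among the other genes that fell, the largest differences were those of Lum (2.18, 0.35 and 0.32 CPM in Placebo 2, Progesterone 2 and Progesterone 3, log2 -2.78), Fbn1 (1.14, 0.18 and 0.22, log2 -2.57) and Postn (3.33, 0.72 and 0.67, log2 -2.37). Next came Col5a2 (1.90, 0.43 and 0.51, log2 -2.13), Col14a1 (0.79, 0.23 and 0.14, log2 -2.11), Col4a1 (1.53, 0.35 and 0.42, log2 -2.09) and Col4a2 (0.81, 0.17 and 0.25, log2 -2.02). In T cells of the same libraries, Lum ranged from 0 to 4.53 CPM, Fbn1 from 0 to 2.79, Postn from 0 to 8.37 and Col5a2 from 0 to 10.4, on at most 8 UMIs a library. Progesterone 1 had no UMI of Lum, Fbn1, Postn, Col5a2 or Col14a1 in tumour cells and 5.64 CPM of Col4a1. The other falls, in log2, were Col6a2 -1.83, Col1a2 -1.70, Col6a3 -1.60, Col3a1 -1.57, Thbs2 -1.52, Fap -1.47, Col15a1 -1.31, Bgn -1.28, Nid1 -1.27, Lama4 -1.17, Tnc -1.08, Dcn -1.04, Col12a1 -0.95, Lox -0.93 and Sparc -0.62. Col1a1 (-1.38), Loxl2 (-0.93), Col5a1 (-0.37), Loxl1 (-0.34) and Fbln2 (-0.13) did not pass. Of the 28 calls, 8 were made in each of the fits that gave a test: Fn1, Col6a1, Fbln1, Thbs1, Lum, Postn, Col1a2 and Col5a2.

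The amount of fibroblast RNA in the libraries moved in the same direction. Placebo 2 held 8497458 fibroblast UMIs, Progesterone 2 1661506 and Progesterone 3 2843261. Col3a1 in tumour cells was 0.086%, 0.0188% and 0.0248% of its fibroblast level in the same library, in T cells 0.174%, 0.0219% and 0.107%, and in macrophages 0.136%, 0.0444% and 0.0347%. A gene that reached other cells only as free fibroblast RNA would keep its fibroblast ratio to Col3a1, so each ratio was divided by that of fibroblasts of the same library. In tumour cells the quotient stayed near 1 for several of the genes that fell. It was 0.98 to 1.20 for Postn over the 3 libraries, 1.02 to 1.46 for Lum and 0.81 to 1.03 for Col1a2. For Col1a1, which did not pass, it was 0.77 to 1.09. The quotient lay below 1 in each library for Col5a2 (0.82 to 0.90), Tnc (0.71 to 0.91) and Fbn1 (0.63 to 0.96), which fell too. For 10 of the other 32 genes its interval lay above 1 in each of the 3 libraries. These were Fn1 (137 to 195), Col18a1 (13.8 to 300), Col6a1 (12.3 to 17.7), Fap (8.62 to 13.9), Fbln1 (3.08 to 150), Thbs1 (2.14 to 21.6), Col6a3 (1.77 to 3.72), Col4a1 (1.31 to 2.90), Col4a2 (1.31 to 2.10) and Col15a1 (1.32 to 2.28). The part of free RNA in the 24 falls was not tested.

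**Figure D5:**
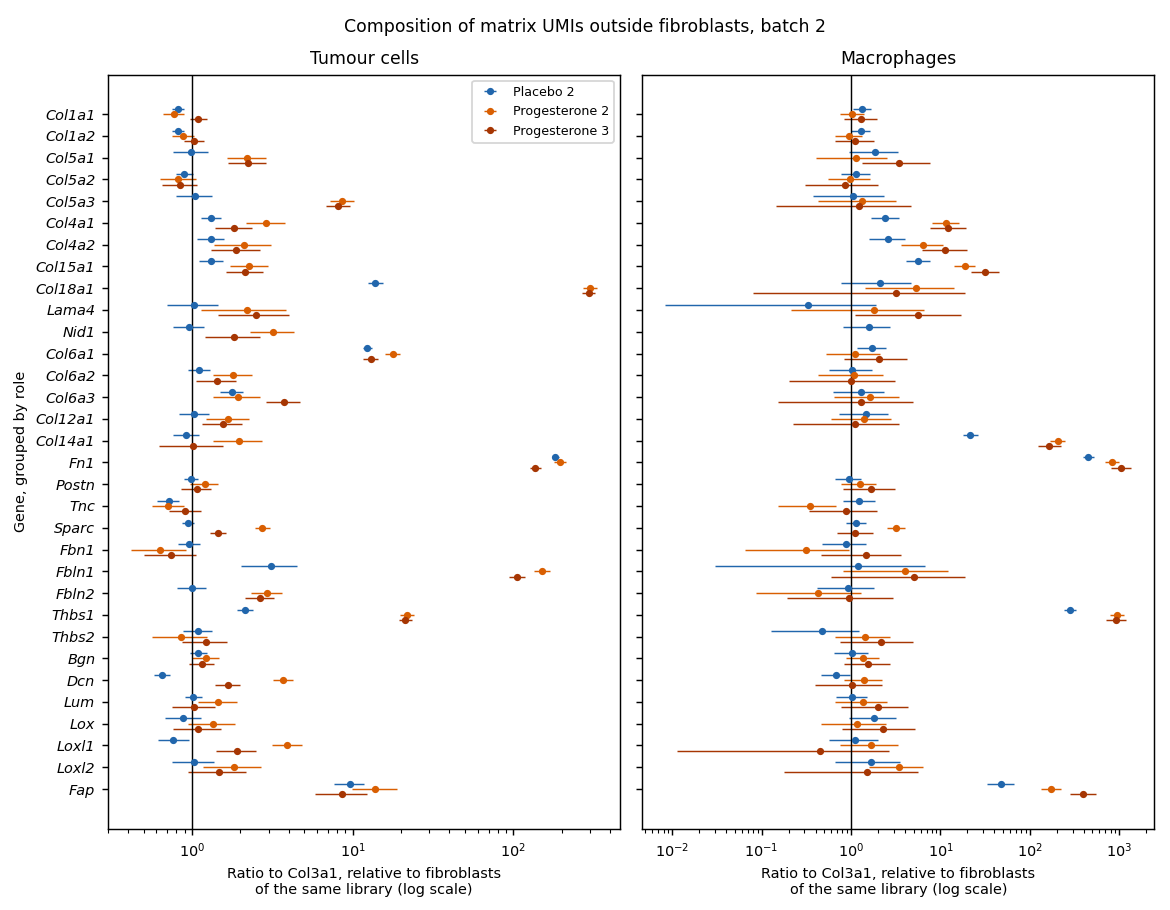
Ratio of each gene's UMIs to those of Col3a1 in tumour cells (left) and macrophages (right), divided by the same ratio in fibroblasts of the library, on a log axis with 95% intervals, for the 3 libraries of batch 2. Values at 1 have the fibroblast mix, Fn1, Col18a1, Col6a1 and Fap stand clear of 1 in tumour cells and Fn1, Thbs1, Col14a1 and Fap in macrophages, and Nid1 with no UMI in macrophages of Progesterone 2 and Progesterone 3 cannot be drawn.

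Different clusters held most tumour cells in each treatment. Of 2316 cells in the cluster led by Dcpp1, Gcg and Krt17, 2303 came from Placebo 2, while the cluster led by Defb1 and Calca held 31 cells of Placebo 2, 986 of Progesterone 2 and 968 of Progesterone 3. Fn1 stood at 905 CPM in Placebo 2 cells of the first cluster. In the Defb1 cluster it stood at 151 in the 31 Placebo 2 cells, 214 in Progesterone 2 and 186 in Progesterone 3, which is the opposite order to that of the whole class. Col6a1 kept its order there, at 29.7, 5.90 and 5.61. Fbln1 stood at 0.51 (1 UMI), 2.77 and 2.24 in the same cells, and Col18a1 at 7.69, 5.51 and 6.11. Thbs1 and Col18a1 were highest in the cluster led by Ntm, Rbms3 and Krt6a, at 17.7 and 12.9 over all libraries, and there Thbs1 stood at 6.80 in 28 Placebo 2 cells against 15.3 and 20.6 in the progesterone libraries. Fbln1 was highest in the cycling cluster led by Ube2c, at 7.07. These within-cluster values rest on few placebo cells and were not tested.

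Among the related genes in tumour cells, 4 of 20 tested genes of collagen processing rose and 10 fell. Pcolce2 rose (0.10, 0.85 and 0.74 CPM, log2 2.66), Plod3, a lysyl hydroxylase gene, fell (69.4, 27.6 and 25.6, log2 -1.53), and Plod2 fell from 0.13 to 0.02 and 0.06 (log2 -1.53). Of 42 genes of other matrix structure, 6 rose and 16 fell, with Efemp1 (-2.95), Eln (-2.16) and Lama2 (-2.02) the largest. Of 24 receptor genes, 3 rose and 9 fell, among them Cd36 (-3.34), Itgb8 (-3.14) and Sdc3, the gene of the proteoglycan syndecan-3 (2.30, 15.7 and 14.8, log2 2.57). Of 18 TGF-beta and myofibroblast genes, 3 rose and 6 fell, among them Cyr61, a matricellular gene also named Ccn1 (38.4, 265 and 337, log2 2.82), Inhba (2.41) and Acta2 (-1.98). DESeq2's Wald test called 9, 11, 8 and 6 genes of the 4 lists, against 14, 22, 12 and 9 in edgeR's test. Over all genes the shares called were 26.3% and 49.6%. The medians of the 4 lists were -0.31, -0.35, -0.19 and -0.10, nearer to that of all genes than the -1.31 of the 33.

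In macrophages, Fn1 and Thbs1 had UMIs in every library. Fn1 stood at 836, 3229, 3058, 2240 and 2026 CPM in Placebo 1, Placebo 2, Progesterone 1, Progesterone 2 and Progesterone 3, and Thbs1 at 1453, 557, 958, 655 and 462. Col14a1 stood at 0, 29.0, 21.9, 56.5 and 32.7, Fap at 16.7, 4.78, 4.87, 7.64 and 13.6, and Col15a1 at 3.33, 6.09, 7.13, 7.01 and 8.69. Placebo 1 rests on 16 cells. The ratio to Col3a1 relative to fibroblasts lay above 1 in the 3 libraries of batch 2 for 7 of 32 genes: Fn1 (450 to 1031), Thbs1 (281 to 930), Fap (46.9 to 392), Col14a1 (21.6 to 204), Col15a1 (5.62 to 31.1), Col4a1 (2.42 to 12.2) and Col4a2 (2.58 to 11.4). After thinning, 35.2% of macrophages in Progesterone 2 had a Col14a1 UMI, against 15.3% in Placebo 2 and 24.8% in Progesterone 3.

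The macrophage clusters differed in these genes. The cluster led by Apoe and C1qa held Col14a1 at 58.7 CPM and Col15a1 at 10.3, against 7.7 and 2.1 in the cluster led by Retnla and Mrc1. Fn1 and Thbs1 went the other way, at 1996 and 402 in the first and 3417 and 1018 in the second. The Apoe cluster held 236 cells of Placebo 2, 850 of Progesterone 2 and 543 of Progesterone 3, and the Retnla cluster 411, 204 and 158. Within the Apoe cluster Col14a1 stood at 73.2, 66.2 and 41.0 in those libraries, and within the Retnla cluster at 6.0, 11.2 and 7.0.

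None of the 15 genes tested in macrophages passed in edgeR's test, where 1.29% of 11895 genes did. An unadjusted p under 0.05 in edgeR's test was reached by 6 of the 15 and by 1709 of all 11895 genes. DESeq2's Wald test called 0 of the 15 and 0.967% of all genes. Both batches entered, and they differed for Fn1: it was 836 against 3058 in batch 1, and 3229 against 2240 and 2026 in batch 2, so the pooled difference of 0.36 (SE 0.77, edgeR adjusted p = 0.886) did not hold within batch 2. In batch 2 alone, a fit chosen after seeing the data, 10 of 25 genes tested were lower where 1769 of 12401 genes (14.3%) passed, Fn1 among them (-0.58), with Col1a1, Col1a2, Col3a1, Col5a2, Col6a1, Postn, Tnc, Dcn and Lum, whose quotients to fibroblasts did not lie above 1 in all 3 libraries. Of the other lists, Itgb5, an integrin chain gene, rose (136, 355 and 320 CPM in batch 2, log2 1.22), Itga1 fell by 1.36, and Cyr61 rose by 1.77. DESeq2's Wald test called 1 receptor gene against these 2 and 0 genes of the TGF-beta list against this 1. In edgeR's test 0 of 14 genes of collagen processing and 0 of 17 of other matrix structure passed, with 2 and 4 at an unadjusted p under 0.05, and DESeq2's Wald test called 0 in both.

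Endothelial cells expressed the basement membrane genes, but their number was too small for a test of treatment. Only 3 libraries had 10 or more cells, and with batch as a term no residual degrees of freedom were left. Col4a1 stood at 511, 1884 and 1686 CPM in Placebo 1, Placebo 2 and Progesterone 1, and Col4a2 at 336, 908 and 875. Col18a1 stood at 476, 248 and 621, Lama4 at 441, 269 and 771, Nid1 at 231, 253 and 384, and Col15a1 at 161, 196 and 66.5. For Col18a1, Lama4 and Nid1, Progesterone 1 was the highest of the 3, while for Col4a1 the placebo libraries lay on both sides of it. Sparc stood at 595, 2024 and 789, Fn1 at 748, 988 and 1205, Thbs1 at 126, 253 and 269, Fbn1 at 69.9, 38.7 and 288, and Fbln2 at 210, 22.4 and 133. Lox had no UMI in any of the 3, and Col1a1 had 74 in Placebo 2 and none in the others. Pericyte markers summed to 83.9, 1417 and 310 CPM and tumour cell markers to 28.0, 4012 and 54.2, so the endothelial class of Placebo 2 also held RNA of other cells, whose part in its values was not tested. A fit without the batch term called 0 of 25 genes in edgeR's test, with 2 at an unadjusted p under 0.05. The largest endothelial sub-cluster, led by Hp, Cfd and Sprr1a, had a low depth (median 1260 UMIs). It held 9, 36 and 16 cells of Placebo 1, Placebo 2 and Progesterone 1. Over all libraries its tumour cell markers stood at 3516 CPM and its endothelial markers at 3884. Its part in the values above was not tested. Cells led by Nts, Abi3bp, Pcsk6 and Prox1 held Lama4 at 557 and Col4a1 at 1766. Those led by Cd36 and Fabp4 held Sparc at 1803, with 1792 in the 23 such cells of Placebo 2.

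Whether the response differed between classes was tested with a class by treatment term and library as a block. No class by batch term was included, so Progesterone 1 counted in the main differences with no placebo library of its batch beside it. Batch and treatment are therefore mixed in those differences, unlike in the main fits of single classes. Between fibroblasts and tumour cells, 0 of 33 genes passed in edgeR's test, where 0.112% of 14238 genes did, 20 had an unadjusted p under 0.05 and the lowest adjusted p was 0.0976 for Fbn1. The median difference, tumour cells minus fibroblasts, was -1.40, against 0.01 over all genes. The largest were Fbn1 at -2.58 and Fbln1 at 2.65, and Col18a1 stood at 2.07, having a level below placebo in fibroblasts and above it in tumour cells in both libraries. Without Progesterone 1, whose fibroblasts were mostly other cells, 29 of 33 passed where 2714 of 16414 genes (16.5%) did, 26 lower and 3 higher (Fbln1 2.90, Col18a1 2.15 and Thbs1 1.05). Between fibroblasts and macrophages 0 of 33 passed, where 0% of 14153 genes did, with 11 at an unadjusted p under 0.05, and 16 passed without Progesterone 1, where 888 of 13953 genes (6.36%) did. The calls of a difference between classes therefore rested on whether that library was included. Whether its batch or its cells had a part in this was not tested. Over all genes, an unadjusted p under 0.05 in edgeR's main test was reached by 1503 of 14238 for tumour cells and by 594 of 14153 for macrophages. Fbn1 stood at only 1.14, 0.18 and 0.22 CPM in tumour cells of Placebo 2, Progesterone 2 and Progesterone 3. Its ratio to Col3a1 there was 0.63 to 0.96 times that of fibroblasts, while 10 genes had an interval above 1 in each library. The part of free fibroblast RNA in the class differences was not tested.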

How the data were processed

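The deposited files hold whole-number UMI counts per gene and cell for 5 libraries, which the authors made with Cell Ranger on mm10. The version is 7.0.0 per the submitters' processing notes and 8.0.1 per the file headers. Cells with under 250 genes and predicted doublets (1.78% to 4.68% of barcodes) were removed. With scanpy 1.11.5, 2000 variable genes without the 33 genes, 30 principal components, 20 neighbours and Leiden clustering at resolution 1 gave clusters, which were named from fixed markers. Fibroblasts and endothelial cells were sub-clustered in the same way. UMIs were summed per library and class with at least 10 cells. edgeR 4.0.16 (TMM, filterByExpr, robust quasi-likelihood fit, batch as a term, prior count 2 for ratios, in R 4.3.3) tested progesterone against placebo in each class, with Benjamini-Hochberg adjustment over all genes tested and a threshold of 0.05. The SE given with a ratio is the absolute log2 ratio divided by the square root of edgeR's F statistic. It was worked out from the test and is not a separate estimate. Levels are CPM of the class, with exact Poisson 95% intervals that cover counting error only. A 3' library gives about 1 count per transcript whatever its length, so values are not divided by length, and genes are not ranked against each other by level. The fits were tested on simulated counts. Alternatives were DESeq2 1.42.0, its size factors, no filter, thinned cells, at least 20 cells, the 33 genes kept for clustering, no batch term, and each library left out. Batch stands for the pairing of libraries, since replicate numbers give no other link. The 33 genes, the other gene lists and the markers were chosen with earlier results of these data known. All 33 genes are named, and in each class those that passed are given with their log2 ratio, with levels for up to 10 of the largest, and from each other list the up to 3 largest among those that passed. Gene positions and upstream bases are from RefSeq.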

Additional observations from a re-analysis of the deposited data

Results flagged for a closer look

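Thbs1 in neutrophils, a class that no comparison used, was at or above its level in fibroblasts of the same library. It stood at 794 CPM in Progesterone 1 (329 cells, 141 with a Thbs1 UMI), where fibroblasts stood at 348. It stood at 1636 in Progesterone 2 (26 cells, 9 with a UMI, fibroblasts 1585) and at 1603 in Progesterone 3 (29 cells, 11 with a UMI, fibroblasts 1465). The placebo libraries had too few neutrophils for a value, so no treatment difference can be read from these.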

How the results depend on the processing

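Of the genes that passed, the 1 in fibroblasts and the 28 in tumour cells kept their direction under every alternative that gave a test. Among genes that did not pass, 6 of 32 changed direction in at least 1 fit in fibroblasts (Col5a2, Col6a3, Col15a1, Loxl1, Fbn1 and Thbs1), 0 of 5 in tumour cells and 12 of 15 in macrophages, and 3 and 5 of 33 for the differences of fibroblasts from tumour cells and from macrophages. Fn1 in macrophages, at 0.36, reversed to -0.58 with at least 20 cells, -0.63 with the 33 genes kept for clustering and -0.58 in batch 2 alone (chosen after seeing the data), and ranged from -0.58 to 1.89 when a library was left out, the last without Placebo 2. The share of all genes called is given in brackets after each count. In fibroblasts, where 1 gene passed (1.81%), 0 passed with no replicate block (the batch term left out, 0%), 6 with DESeq2 size factors (2.74%), 5 with DESeq2's Wald test (0.928%), 16 with no filter on low counts (5.05%), 13 with thinned cells (3.82%), 10 with the 33 genes kept for clustering (3.61%), 6 without Progesterone 1 (2.67%) and, chosen after seeing the data, 10 without 4 sub-clusters (6.21%). The fits with the 33 genes kept for clustering and without 4 sub-clusters had too few fibroblasts of Progesterone 1 and dropped that library as well. In tumour cells, where 28 passed (49.6%), 12 passed with no replicate block (11.1%) and 13 with DESeq2's Wald test (26.3%), and 24 to 29 under the other settings, 28 of them without Progesterone 1. In macrophages, where 0 passed (1.29%), 9 passed with no filter (4.45%), 10 with at least 20 cells (11.5%), 11 with the 33 genes kept for clustering (13.3%), and 0 to 10 when a library was left out (10 without Placebo 1, 11.5%, 10 without Progesterone 1, 13.1%, and 1 without Placebo 2, which was Fn1, 5.71%). In batch 2 alone, 10 passed (14.3%). For the difference between fibroblasts and tumour cells, 29 passed with the 33 genes kept for clustering (16.3%) and 0 to 29 when a library was left out. For that between fibroblasts and macrophages, the counts were 17 (6.5%) and 0 to 16. Without Placebo 2 no fibroblast or tumour fit could be made, and without Progesterone 2 or Progesterone 3 no residual degrees of freedom were left in them, so those gave no test. The endothelial fit and the difference between fibroblasts and endothelial cells gave none either, under any setting with a batch or library term. The cause of these changes was not tested. Many tumour cell values, among them most of the falls, rest on under 100 UMIs in a progesterone library. The lowest levels were those of Lama4, at 0.21, 0.07 and 0.12 CPM in Placebo 2, Progesterone 2 and Progesterone 3.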
